A study of Mus musculus with 13 samples.

Results

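Cebpa, Cebpe, Gfi1, Spi1 and Irf8 encode 5 transcription factors that direct immature blood cells into the granulocyte and monocyte lines. They were measured in sorted blood stem and progenitor cells of mice with intact or mutant c-Cbl. Probes were chosen by gene symbol in the platform annotation, which gave 8 of the 45281 probes on the array, 4 for Cebpe and 1 for each of the other genes. They stand for 5 of 29453 features, a feature being a gene or an unnamed probe. One probe per gene, the brightest, was used in the tests. All 5 genes were among the 12807 features tested, those with a detection p under 0.01 on at least 2 arrays.

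Cebpa encodes C/EBPα, a leucine zipper factor needed for common myeloid progenitors to become granulocyte-macrophage progenitors. Spi1 encodes PU.1, an ETS family factor that acts by dose, with high levels favouring myeloid fates and low levels permitting erythroid ones. Irf8 encodes an interferon regulatory factor that binds DNA together with PU.1 and favours monocytes and dendritic cells over neutrophils. Gfi1 encodes a zinc finger repressor that favours neutrophils and restrains monocyte genes. Cebpe encodes C/EBPε, which acts later in the granulocyte line and switches on the genes of secondary granules. C-Cbl is a ubiquitin ligase that directs activated growth factor receptors, KIT and FLT3 among them, to degradation.

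The mice were of C57BL/6 background with the c-Cbl genotypes +/+, A/- or -/-. The A/- mice carried an allele written A over a null allele, and what A stands for is not spelled out in the labels. All populations were sorted as lineage-negative and c-Kit-positive. Long-term stem cells (LTHSC, CD34-Flt3-), short-term stem cells (STHSC, CD34+Flt3-) and multipotent progenitors (MPP, CD34+Flt3+) were also Sca1-positive and are called LSK cells here. Common myeloid progenitors (CMP, CD34+CD16/32-), granulocyte-macrophage progenitors (GMP, CD34+CD16/32+) and megakaryocyte-erythroid progenitors (MEP, CD34-CD16/32-) were Sca1-negative and are called committed progenitors. Each of the 6 populations had 1 +/+ array and 1 A/- array, and LTHSC also had 1 -/- array, 13 arrays in all. Sex, age and any pooling of mice are not given in the labels. With 1 array per genotype and population, a p-value over pairs measures how far the genotype difference varied between populations, and the number of arrays limits the precision.

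Some arrays stood apart before any result on these genes. Mean unnormalized signal was 249 to 260 on the 3 LTHSC arrays and 744 to 1150 on the other 10, with A/- dimmer than +/+ in 6 of 6 populations (ratio 0.654 to 0.957). The +/+ LTHSC array lacked the Y-linked transcript Eif2s3y (4.64 on the log2 scale, not detected), which was at 9.04 to 10.71 on the other 12. Neither Cbl nor Flt3 was detected on any array, so the Cbl probe checks no genotype label. Cd34 was at 10.01 to 10.21 on the LTHSC arrays, though these cells were sorted as CD34-. Fcgr3, the CD16 gene, was at 8.60 on the +/+ MEP array and not detected (4.43) on its A/- partner, though both were sorted as CD16/32-.

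Mature neutrophil transcripts also differed between the genotypes on these arrays. The summed signal of 11 neutrophil markers was 8321 to 207221 on the +/+ arrays and 899 to 132405 on the A/- arrays, lower in A/- in 5 of 6 pairs. In MEP it was 123418 in +/+ and 2107 in A/-, in GMP 70126 and 3583, and in CMP 8321 and 899. In STHSC it was 168084 and 95057, in MPP 207221 and 119655, and in LTHSC 114377 and 132405. The share of this signal in the values of the 5 factors was not tested, and in sorted bulk samples fewer cells of a type and less RNA per cell cannot be told apart. Summed macrophage, B cell and T and NK cell markers were lower in A/- in 6 of 6 pairs, at 510 to 1792, 515 to 2481 and 2069 to 17780 in +/+ against 257 to 904, 187 to 1974 and 316 to 12365 in A/-. Monocyte and dendritic markers (1283 to 12695 and 859 to 10923) and mast cell and basophil markers (2464 to 17218 and 1616 to 15958) were lower in 5 of 6. Sort markers were lower in 4 of 6, and erythroid and megakaryocyte, stem cell and stromal markers in 3 of 6. The sums include undetected probes. Macrophage, B cell, and T and NK cell markers were detected for 7 of 9, 3 of 5 and 4 of 7 genes on +/+ MPP. On A/- MEP they were detected for 0 of 9, 0 of 5 and 1 of 7. The B cell genes Pax5 and Ms4a1 and the stromal genes Cdh5 and Col1a1 were detected on no array.

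**Figure D1:**
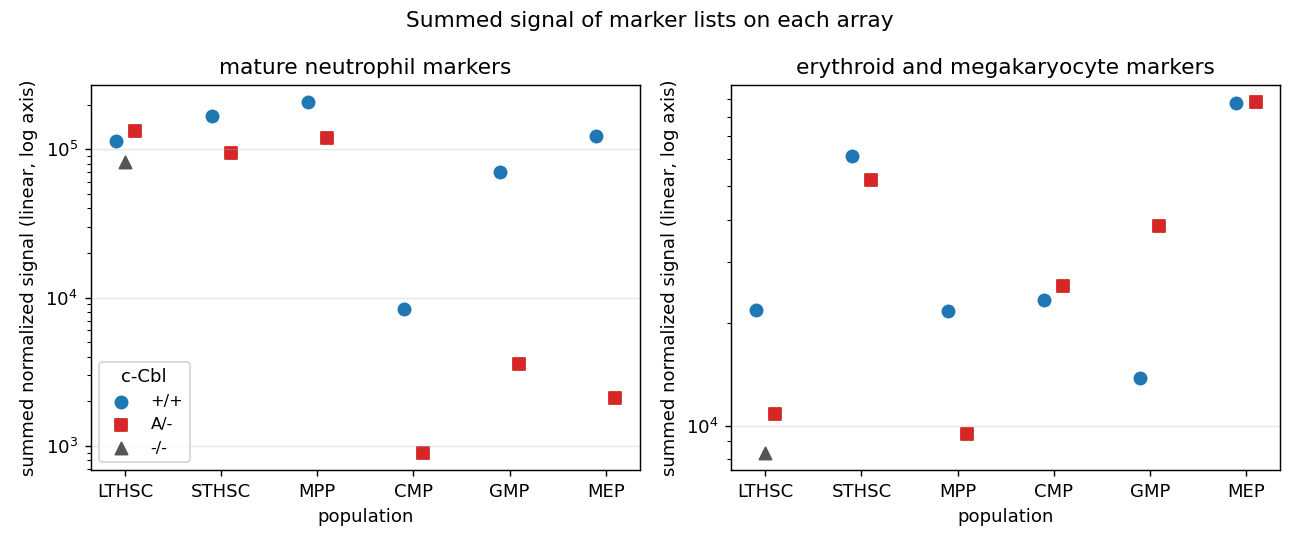
Summed normalized signal (linear units on a log axis) of 11 mature neutrophil markers and 10 erythroid and megakaryocyte markers, 1 point per array by population and c-Cbl genotype. The neutrophil sum was 123418 in +/+ and 2107 in A/- MEP and 70126 and 3583 in GMP, and the erythroid and megakaryocyte sum was 87552 and 87939 in MEP and 13773 and 38261 in GMP.

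The start regions of these genes were searched for the short DNA motifs of the factors themselves, because C/EBP, PU.1, GFI1 and IRF8 are known to act on each other's genes. RefSeq windows (build GRCm38.p6) from 250 bases before to 50 after a start held 3 of the 5 genes, and the first listed window of each is shown 5′ to 3′ on the gene's strand, with motif matches in capitals. The Cebpa window lies at chr7:35119043-35119342 (+ strand), the Gfi1 window at chr5:107725756-107726055 (- strand) and the Irf8 window at chr8:120736108-120736407 (+ strand).
Cebpa: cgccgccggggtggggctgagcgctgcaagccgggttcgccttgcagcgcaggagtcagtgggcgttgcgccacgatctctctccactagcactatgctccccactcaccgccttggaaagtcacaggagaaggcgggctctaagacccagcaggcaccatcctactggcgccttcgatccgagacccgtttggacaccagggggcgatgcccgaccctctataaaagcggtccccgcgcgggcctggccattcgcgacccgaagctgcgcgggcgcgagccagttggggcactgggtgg
Gfi1: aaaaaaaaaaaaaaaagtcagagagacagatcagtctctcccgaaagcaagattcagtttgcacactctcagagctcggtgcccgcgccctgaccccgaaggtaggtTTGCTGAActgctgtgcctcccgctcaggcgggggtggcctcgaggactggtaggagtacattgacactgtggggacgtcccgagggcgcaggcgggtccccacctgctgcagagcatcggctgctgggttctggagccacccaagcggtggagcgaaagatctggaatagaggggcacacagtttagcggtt
Irf8: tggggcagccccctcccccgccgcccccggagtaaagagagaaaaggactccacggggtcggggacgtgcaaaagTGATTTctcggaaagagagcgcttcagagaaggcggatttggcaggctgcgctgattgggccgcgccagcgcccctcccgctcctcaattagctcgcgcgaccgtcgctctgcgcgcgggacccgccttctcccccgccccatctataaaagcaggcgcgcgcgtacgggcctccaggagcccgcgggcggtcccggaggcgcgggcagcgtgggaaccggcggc
The Gfi1 window held TTGCTGAA, a match to the C/EBP motif TTGCNNAA, at position -143 from the start. The Irf8 window held TGATTT, the reverse complement of the GFI1 motif AAATCA, at -175, and a second Irf8 window (chr8:120738389-120738688) held the same letters at -226. The Cebpa window and a second Gfi1 window (chr5:107724294-107724593) held none of the motifs. Both strands were searched, also for the PU.1 motif GAGGAA and for the interferon response motif (GAAA and GAAA, 2 bases apart) and the ETS-IRF motif (GGAA and GAAA, 2 bases apart), and no 2 matches overlapped. Among 32851 RefSeq promoter windows of this length, 10.8% held the C/EBP motif, 28.3% the PU.1 motif, 14% the GFI1 motif, 3.44% the interferon response motif and 2.71% the ETS-IRF motif. Spi1 and Cebpe are named only. These matches are descriptions of letters and not of binding.

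The first question was where along the hierarchy each factor was expressed. Values are normalized log2 signals, so a step of 1 is a doubling, and since probes differ in brightness no gene's level was set against another's. The 5 genes shared their lowest array, A/- MEP, where the brightest probe of each was not detected. Their highest arrays were GMP or CMP.

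Cebpa, the factor of the step into the granulocyte-macrophage line, was near background in stem cells and rose at MPP. On the +/+ arrays it was at 5.23 (LTHSC, not detected), 5.78 (STHSC), 6.83 (MPP), 8.09 (CMP), 7.63 (GMP) and 5.78 (MEP, not detected). On the A/- arrays it was at 5.55, 5.35 (not detected), 7.48, 8.16, 8.25 and 4.93 (not detected) in the same order. MPP, CMP and GMP stood above the other 3 populations in both genotypes without overlap. Among neighbours in the order of means, CMP, GMP, MPP, STHSC, LTHSC and MEP, the step from STHSC to MPP passed, at 1.60 (SE 0.37, limma adjusted p = 0.0427). The probe did not reach detection on either MEP array, so the CMP level was at least 3.38-fold above MEP (adjusted p = 4.65e-04), where the MEP floor is the lowest signal among detected probes of that array.

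**Figure D2:**
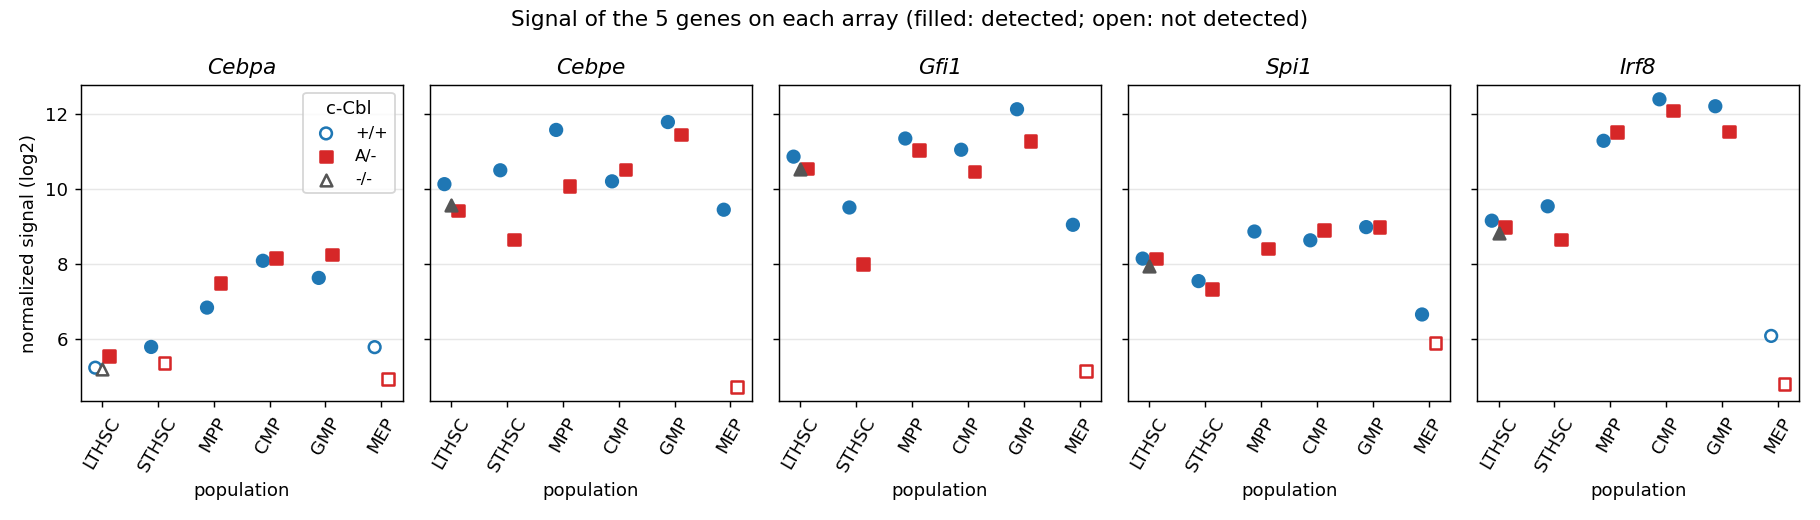
Normalized log2 signal of the brightest probe of Cebpa, Cebpe, Gfi1, Spi1 and Irf8 on each of the 13 arrays, by population and c-Cbl genotype (filled points detected, open points not detected). The A/- MEP array is the lowest in each panel, at 4.93, 4.71, 5.15, 5.88 and 4.78.

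Irf8, the monocyte and dendritic cell factor, had the widest range of the brightest probes, 7.62 log2 units between arrays. In +/+ cells it was at 9.16 for LTHSC, 9.54 for STHSC, 11.29 for MPP, 12.40 for CMP, 12.22 for GMP and 6.08 for MEP (not detected). In A/- cells it was at 8.99, 8.65, 11.53, 12.11, 11.54 and 4.78 (not detected). With all arrays normalized together, CMP, GMP and MPP formed a high set and both stem cell fractions a middle set. MEP lay below them, with no overlap between sets in either genotype. The step from STHSC to MPP was 2.32 (SE 0.31, adjusted p = 0.00503) and that from MEP to LTHSC 3.64 (SE 0.31, adjusted p = 2.29e-05). Against MEP the level was at least 59.2-fold higher in CMP, 45.7-fold in GMP and 33.1-fold in MPP. For LTHSC the bound was 6.53-fold, but this bound and the step from MEP to LTHSC rest on the joint normalization. The authors' own processed values put +/+ LTHSC and MEP at 7.86 and 7.83, and A/- LTHSC and MEP at 7.74 and 7.38. STHSC was at 10.08 in +/+ and 9.35 in A/- by those values.

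Spi1, which encodes the shared partner of many of these factors, had a range of 3.10 log2 units between arrays. It was at 8.14, 7.54, 8.87, 8.63, 8.99 and 6.65 in +/+ LTHSC, STHSC, MPP, CMP, GMP and MEP. In A/- cells it was at 8.14, 7.32, 8.41, 8.90, 8.98 and 5.88 (not detected). In both genotypes GMP was highest, and with all arrays normalized together STHSC came below LTHSC. That order turned with the authors' own processed values, at 7.17 and 7.17 in +/+ and A/- LTHSC and 8.56 and 8.43 in STHSC. It also turned with the LTHSC arrays normalized apart, at 6.82 and 6.81 in LTHSC and 7.77 and 7.54 in STHSC. STHSC exceeded MEP by 1.17 (SE 0.26, adjusted p = 0.00634), and no other pair of neighbours passed. GMP exceeded STHSC by 1.55 (adjusted p = 0.00703).

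Gfi1, the neutrophil-line repressor, was highest in GMP. Its +/+ values were 10.87, 9.51, 11.36, 11.05, 12.14 and 9.05 from LTHSC to MEP in the order above. Its A/- values were 10.55, 7.995, 11.05, 10.47, 11.29 and 5.15 (not detected). With all arrays normalized together, the STHSC array was below the LTHSC, MPP, CMP and GMP arrays in both genotypes. With the authors' own processed values +/+ LTHSC was at 9.20 and +/+ STHSC at 10.05, and A/- at 8.92 and 8.86. With the LTHSC arrays normalized apart, LTHSC and STHSC were at 9.10 and 9.77 in +/+ and 8.81 and 8.23 in A/-. So STHSC was below LTHSC in +/+ in the joint normalization but not in these 2 settings. No neighbours in the order of means passed, with LTHSC over STHSC at 1.96 (SE 0.72, adjusted p = 0.110) and STHSC over MEP at 1.66 (SE 0.72, adjusted p = 0.0969). GMP over STHSC passed, at 2.96 (adjusted p = 0.0320).

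Cebpe, the secondary granule regulator, was detected in the stem cell fractions as well as in GMP. By its brightest probe the +/+ arrays were at 10.14, 10.51, 11.58, 10.21, 11.79 and 9.45 from LTHSC to MEP. The A/- arrays were at 9.43, 8.66, 10.09, 10.53, 11.46 and 4.71 (not detected). GMP was highest in both genotypes, and MPP held the second place in +/+ but the third in A/-. No neighbours passed, and the largest step was from MEP to STHSC, at 2.50 (SE 0.93, adjusted p = 0.0578).

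Counted over the 5 genes and 15 pairs of populations, 38 of 75 level contrasts passed. Irf8 had 11, Cebpa and Spi1 9 each, Gfi1 5 and Cebpe 4. MEP was below MPP, CMP and GMP for 5 of 5 genes, where 25.3%, 18.1% and 18.1% of all tested features were lower. It was below LTHSC for 4 of 5 (27.5% of features) and below STHSC for 2 of 5 (22.1%). The contrasts with LTHSC rest on normalizing its dimmer arrays together with the others. With the authors' own processed values Spi1 was at 7.17 and 7.17 in +/+ and A/- LTHSC and 8.07 and 7.76 in MEP. All level contrasts average the genotypes, and the A/- MEP array was below the +/+ MEP array for each gene. For Cebpe, MEP and CMP were at 9.45 and 10.21 in +/+ and at 4.71 (not detected) and 10.53 in A/-. Among the 10 contrasts without MEP, Cebpe passed in 0 and Gfi1 in 1, against 6 for Cebpa and Irf8 and 4 for Spi1. MPP exceeded STHSC for Cebpa, Spi1 and Irf8 (2.73% of features were higher), and CMP exceeded STHSC for the same 3 genes (2.43%). GMP exceeded STHSC for these and Gfi1 (4.04%). Over LTHSC, MPP and CMP were higher for Cebpa and Irf8 (6.39% and 11% of features were higher) and GMP for Cebpa, Spi1 and Irf8 (13.4%). Between GMP and CMP, limma called 0 of 5 genes and 0% of features, 845 of which had an unadjusted p under 0.05. STHSC and LTHSC differed for 0 of 5 genes (11.2% of features), CMP and MPP for 0 of 5 (2.40%), and GMP and MPP for 0 of 5 (8.07%).

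With the committed populations averaged, 1 of 5 genes differed from LSK cells in the limma fit, as did 45.9% of features in either direction. It was Cebpa, at 1.10 (SE 0.22, adjusted p = 0.00315), where 22.3% of features were higher. That average joins GMP and CMP with MEP, and without MEP all 5 genes were called higher in committed cells, as were 10.5% of features.

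Across the 13 arrays the genes varied together to different degrees, which is given as a description because the arrays share populations and the MEP arrays are low for each gene. Pearson's r was 0.951 for Spi1 with Irf8, the known DNA-binding partners, and 0.928 for Cebpe with Gfi1, both of the neutrophil line. It was 0.914 for Gfi1 with Spi1, and lowest for Cebpa with Gfi1 (0.611) and with Cebpe (0.621). Among all tested genes the 4 most like Cebpe were Hp (haptoglobin, r = 0.982), Elane (neutrophil elastase, 0.975), Ly6c1 (0.974) and Ltb4r1 (a leukotriene B4 receptor, 0.974). Those most like Gfi1 were Gpr160 (0.980), Aatk (0.975), Arl11 (0.974) and Lbp (0.972). For Irf8 they were Pgam1 (0.987), Mapkapk2 (0.984), Palm (0.983) and Hexa (0.982), and for Spi1 Gria3 (0.982), Milr1 (0.978), Sh3tc1 (0.976) and Kcnk12 (0.973). Cebpa had less close neighbours, Chdh (0.951), Il17rb (0.946), Itga1 (0.945) and the fractalkine receptor gene Cx3cr1 (0.939).

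The second question was whether the A/- genotype changed these factors. Gfi1 was lower in A/- in 6 of 6 populations, as were 3.87% of tested features. Cebpe, Spi1 and Irf8 were lower in 5 of 6, a count for which the share of features is not given. The 5 of Spi1 include LTHSC and GMP, at -0.001 each, and those of Irf8 include MEP, where neither array detected it. Cebpa was lower in 2 of 6. Over the 6 pairs limma called 0 of 5 genes at an adjusted p under 0.05, and it called 76 of 12807 features (0.593%). At an unadjusted p under 0.05 there were 3 of 5 genes and 15.6% of features.

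Gfi1 in A/- minus +/+ was -0.32 for LTHSC, -1.52 for STHSC, -0.30 for MPP, -0.58 for CMP, -0.85 for GMP and -3.90 for MEP. STHSC and MEP were the populations with a difference of 2-fold or more, at 2.86-fold lower in STHSC and at least 6.44-fold lower in MEP. The mean over pairs was -1.24 (SE 0.42, unadjusted 95% interval -2.18 to -0.31, n = 6 pairs, adjusted p = 0.217). Without the MEP pair it was -0.71 (SE 0.17, adjusted p = 0.140), and the A/- level stayed lower in each of the 5 remaining pairs. With both the LTHSC pair and the MEP pair removed, Gfi1 passed at -0.81 (adjusted p = 0.0406), as did 3.89% of features.

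Cebpe, by its brightest probe, differed by -0.70 for LTHSC, -1.85 for STHSC, -1.50 for MPP, 0.32 for CMP, -0.33 for GMP and -4.74 for MEP. It was 3.60-fold lower in STHSC, 2.82-fold lower in MPP and at least 8.52-fold lower in MEP, and higher in A/- in CMP. The mean was -1.47 (SE 0.54, interval -2.68 to -0.26, adjusted p = 0.243), and it was -0.81 without the MEP pair (adjusted p = 0.257). Without the LTHSC pair, whose +/+ array lacked Eif2s3y, the means were -1.62 for Cebpe (adjusted p = 0.172) and -1.43 for Gfi1 (adjusted p = 0.122).

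**Figure D3:**
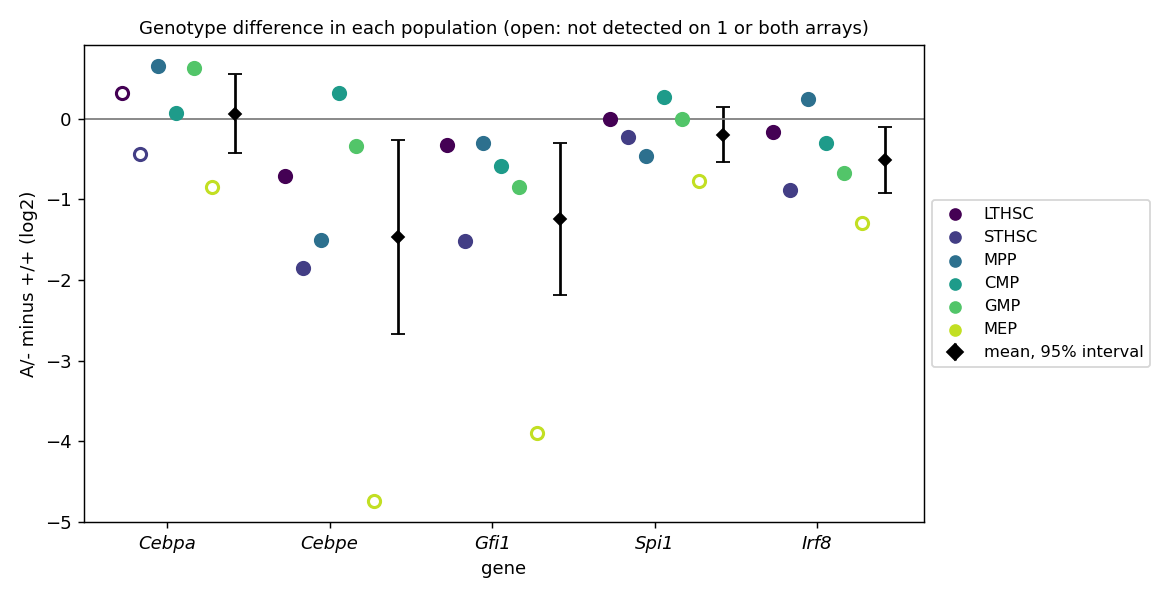
A/- minus +/+ difference in normalized log2 signal for each gene, 1 point per population (open where the probe was not detected on 1 or both arrays), with the mean over 6 pairs and its unadjusted 95% interval from limma as black diamonds. The MEP points of Cebpe (-4.74) and Gfi1 (-3.90) lie apart from the others, and the Cebpa points lie on both sides of 0.

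The other 3 Cebpe probes gave the same sign as the brightest in LTHSC, STHSC, MPP and MEP. Their STHSC differences were -2.13, -0.94 and -1.32, and their MPP differences -1.82, -0.85 and -1.59. In MEP they were at least 8.41-fold, 3.98-fold and 2.26-fold lower in A/-. The probes disagreed in sign in CMP, where the other 3 were at -0.39, 0.97 and 0.15, and in GMP, where they were at -0.79, 0.09 and -0.15. Across the 13 arrays the 4 probes correlated with each other at r between 0.893 and 0.985. Tested as features of their own among 18652 probes, 0 of the 4 passed, with means between -1.73 (adjusted p = 0.150) and -0.87 (adjusted p = 0.167).

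**Figure D4:**
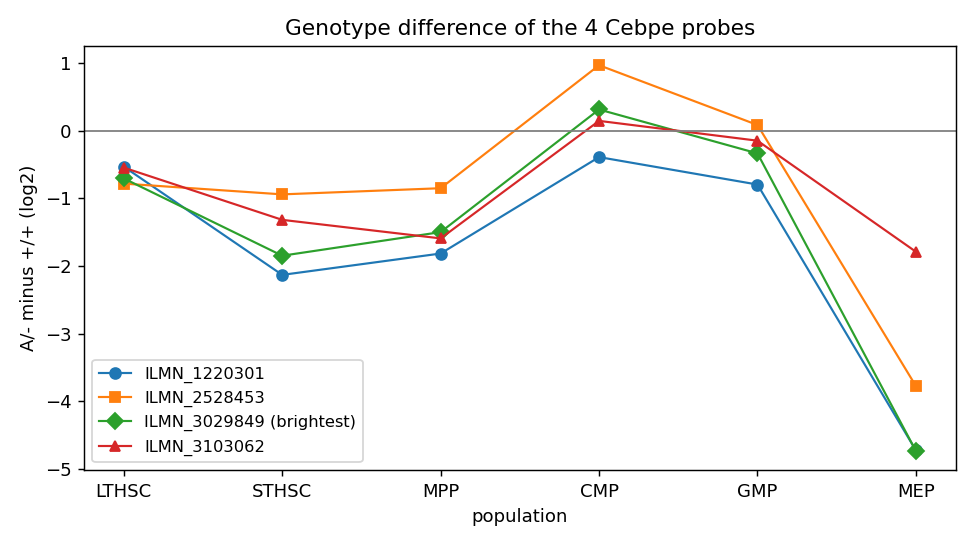
A/- minus +/+ difference in normalized log2 signal of the 4 Cebpe probes by population, 1 line per probe. The lines lie below 0 in LTHSC, STHSC, MPP and MEP and cross 0 in CMP and GMP.

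Irf8 differed by -0.17 for LTHSC, -0.89 for STHSC, 0.24 for MPP, -0.30 for CMP and -0.68 for GMP. In MEP neither array detected it. No population with detected signal reached a 2-fold difference. The mean over pairs was -0.51 (SE 0.18, interval -0.92 to -0.11, adjusted p = 0.234), and it was -0.36 without the MEP pair (adjusted p = 0.365).

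Spi1 was at the same level in both genotypes of LTHSC and GMP (differences of -0.00 in each), at -0.22 in STHSC, -0.46 in MPP and 0.27 in CMP, and at least 1.22-fold lower in A/- MEP. The mean was -0.20 (SE 0.15, interval -0.53 to 0.14, adjusted p = 0.541), and -0.08 without MEP (adjusted p = 0.844).

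Cebpa differed by 0.65 in MPP, 0.07 in CMP and 0.62 in GMP, the populations where both arrays detected it. In LTHSC and STHSC 1 of 2 arrays detected it, and in MEP neither did. The mean over pairs was 0.06 (SE 0.22, interval -0.42 to 0.55, adjusted p = 0.912). Left-out pairs moved it between -0.05 (without MPP) and 0.25 (without MEP), so its sign was not fixed.

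**Figure D5:**
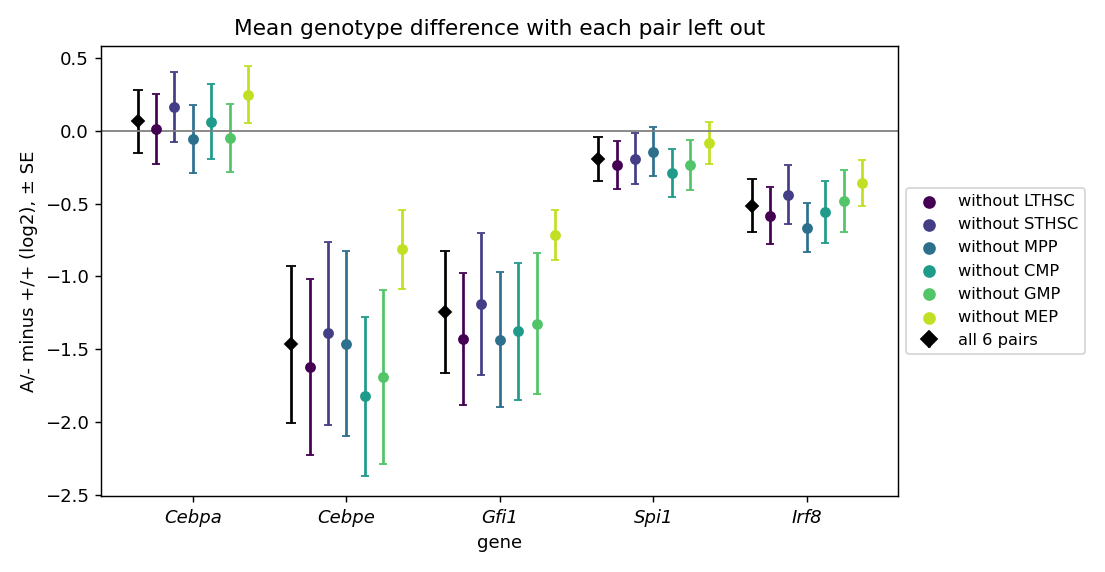
Mean A/- minus +/+ difference (log2, with SE from limma) of each gene over all 6 pairs (black diamonds) and with each population pair left out (coloured points). Without MEP the means of Cebpe, Gfi1 and Irf8 moved to -0.81, -0.71 and -0.36 and stayed below 0.

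Taken 1 population at a time, with 1 array on each side and no test, 2 of 5 genes (Cebpe and Gfi1) were at least 2-fold lower in STHSC, where 3.05% of tested features were. In MEP the same 2 genes were (4.35% of features), and in MPP Cebpe (4.92%). In LTHSC, CMP and GMP the count was 0 of 5 (1.53%, 1.77% and 4.11%). None of the 5 was 2-fold higher in A/- in any population. On those MEP arrays Mpo, the myeloperoxidase of primary granules, was at 14.86 in +/+ and 10.95 in A/-. The erythroid factors Gata1 and Klf1 were at 10.02 and 13.34 in +/+ MEP and at 10.05 and 13.92 in A/- MEP. In GMP, Gata1 was at 5.99 and 8.04 and Klf1 at 9.38 and 11.65. Of 15 tested receptor and primary granule genes, 8 were at least 2-fold lower in A/- MEP and 1 higher. Of 10 tested erythroid and megakaryocyte markers, 3 were at least 2-fold lower in A/- MEP and 0 higher, with a median of -0.26. In GMP 0 of these 10 were lower and 8 higher, with a median of 1.78. Among all features, 1.75% were at least 2-fold higher in MEP and 4.04% in GMP.

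Within LSK cells limma called 0 of 5 genes and 0% of features (898 features had an unadjusted p under 0.05). The means were -1.35 for Cebpe (SE 0.80), -0.71 for Gfi1 (SE 0.57), -0.27 for Irf8 (SE 0.24), -0.23 for Spi1 and 0.18 for Cebpa. With LTHSC and MEP left out, Cebpe was called in the LSK cells that remained, at -1.67 (adjusted p = 0.00270, 2 pairs), as were 2.06% of features. With the LTHSC pair alone left out, the same mean of -1.67 had an adjusted p of 0.497.

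Within committed progenitors 0 of 5 genes were called, against 0.476% of features. Gfi1 was at -1.78 (SE 0.57, adjusted p = 0.166), Irf8 at -0.76 (SE 0.24, adjusted p = 0.166) and Cebpe at -1.58 (SE 0.80, adjusted p = 0.331). Spi1 was at -0.17 and Cebpa at -0.05. The MEP pair set much of these means, and without it Gfi1 was at -0.72, Irf8 at -0.49, Cebpe at -0.01, Spi1 at 0.13 and Cebpa at 0.35. The genotype difference itself differed between committed and LSK cells for 0 of 5 genes and 0.00781% of features, with Gfi1 at -1.06 (SE 0.80, adjusted p = 0.712).

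The -/- genotype was measured in 1 population, LTHSC, on 1 array. Against +/+ LTHSC the 5 genes were at -0.02 (Cebpa, detected on neither array), -0.55 (Cebpe), -0.32 (Gfi1), -0.21 (Spi1) and -0.32 (Irf8). Against A/- LTHSC, Cebpe was at 0.16, Gfi1 at -0.00, Spi1 at -0.21 and Irf8 at -0.15. No gene reached 2-fold by its brightest probe in either comparison (2.26% and 2.74% of features were 2-fold lower). Another Cebpe probe was at -1.13 against +/+. The +/+ LTHSC array used in the first of these is the one without Eif2s3y.

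Other genes of the granulocyte-monocyte programme were read from lists of known partners and targets. Of 27 further regulators of the lines 20 were tested, and limma called 0 over the 6 pairs. Their median was -0.02, with 11 of 20 below 0, against a median of 0.01 and 46.8% of all features. The lowest were Klf4, a monocyte factor (-0.53, adjusted p = 0.478), and Cebpb, the C/EBP of emergency granulocyte production (-0.32, adjusted p = 0.365). The highest were Vdr, the vitamin D receptor (0.37), and Sox4 (0.27). Of 22 partners and antagonists 19 were tested and 0 called, with a median of 0.02 and 9 below 0. Id2, an inhibitor of basic helix-loop-helix factors, was at -1.12 (adjusted p = 0.238) and Trib1, whose protein directs C/EBPα to degradation, at -0.57. Tal1 and Gfi1b, of the erythroid and megakaryocyte lines, were at 0.37 and 0.29.

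Among known targets of the factors, the receptor and primary granule genes lay mostly below 0. Of 15 receptor and primary granule genes 0 were called over the 6 pairs, 13 lay below 0 and the median was -0.71, against 46.8% below 0 and a median of 0.01 for all features. Ms4a3, of granulocyte-macrophage progenitors, was at -1.61 (SE 0.55, adjusted p = 0.220) and Fcgr3 at -1.60 (SE 0.41, adjusted p = 0.130). At the other end Il6ra, the interleukin 6 receptor, was at 0.13 and Ctsc, the protease that activates granule enzymes, at 0.02.

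Secondary granule genes, known targets of C/EBPε, had a median of -2.73 over the 6 pairs, with 8 of 8 tested below 0 and 0 called. In committed progenitors 8 of 8 were below 0 and 4 were called lower, where 0.476% of all features were called. The 4 called were Camp (cathelicidin, -5.45), Chil3 (-5.26), Ltf (lactoferrin, -5.17) and Lcn2 (a siderophore binder, -4.25), and the list's median was -4.71. By population that median was 0.52 for LTHSC, -1.60 for STHSC, -1.27 for MPP, -2.29 for CMP, -4.82 for GMP and -6.27 for MEP. Beside it the brightest Cebpe probe was at -0.70, -1.85, -1.50, 0.32, -0.33 and -4.74 in the same order, with A/- MEP not detected. The Cebpe probes disagreed in sign in CMP and GMP. Most of these genes are also in the neutrophil marker list, whose 11 genes gave 0 calls over 6 pairs (0.593% of features) and 6 lower in committed progenitors (against the same 0.476%). Without the STHSC, MPP, GMP or MEP pair, 0 of the 8 secondary granule genes were called in committed progenitors, with lowest adjusted p values of 0.0777, 0.0524, 0.333 and 0.0898 in the limma fit. Without the LTHSC pair 5 were called and without the CMP pair 4, and the list's median ranged from -5.68 to -3.65 over the 6 fits. Of the neutrophil list, 1 was called without the STHSC or GMP pair and 2 without the MPP or MEP pair.

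Of 10 IRF8 targets 6 were tested and 0 called, with a median of -0.24 and 5 of 6 below 0. The lowest were Ly86, of myeloid cells, at -0.58 (adjusted p = 0.167) and Klf4 at -0.53 (adjusted p = 0.478). The highest were Il18 at 0.07 and Ciita, the MHC class II activator, at -0.08. Among 8 tested genes that GFI1 is known to repress, Irf8 and Spi1 among them, 0 were called, 4 were below 0 and the median was -0.01. Id2 (-1.12) and Irf8 (-0.51) were lowest and Gfi1b (0.29) and Nab2 (0.18) highest.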

How the data were processed

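RNA of sorted cells was amplified to biotinylated cRNA and hybridised to Illumina bead arrays, per the labels' protocols. The deposited table holds unnormalized intensity values and, beside each, a detection p-value, per the file headers. The authors' processed intensity values, from another deposited table, were an alternative. The sources used here name no scanner software, background handling or genome build.

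Background was taken from the detection p-values with limma 3.58.1 in R 4.3.3 (offset 16), the 13 arrays were normalized by quantiles and log2 was taken, so differences are relative and those of dim probes are shrunk. Probes were named from the platform annotation. The probe with the highest mean stood for a gene, giving 29453 features, and 12807 with a detection p under 0.01 on at least 2 arrays were tested. A gene counted as detected on an array at that same threshold. Where 1 side was not detected, its fold is a bound.

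The genotype fits used 12 arrays, with population as a block, by lmFit and eBayes with a trend. Level contrasts had genotype as a covariate. P-values were adjusted by Benjamini-Hochberg over all tested features, and calls were made under 0.05. The -/- array entered no fit. Steps were tested on simulated data. Alternatives covered the offset, normalization, background, filter, trend, probe choice, block and left-out pairs. Treating each probe as a feature was added after seeing the data.

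The 5 genes and all lists were chosen with earlier results of these data known. All 5 genes are named with each probe, the 4 genes most like each by Pearson's r, and from each list the called genes or the 2 highest and 2 lowest. Mpo, Gata1 and Klf1 were named on the MEP or GMP arrays outside this rule. Marker lists covered mature neutrophil, macrophage, monocyte and dendritic, B cell, T and NK cell, erythroid and megakaryocyte, mast cell and basophil, stem cell, stroma and endothelium, and sort markers. Over the 6 pairs 0 genes of any marker list were called.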

Additional observations from a re-analysis of the deposited data

Results flagged for a closer look

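The Gfi1 difference between A/- and +/+ in MEP, at -3.90 on the log2 scale, lay apart from the differences of the other 5 populations, which were between -1.52 and -0.30. Its gap to the nearest of them was 0.663 of the whole range, above Dixon's 95% critical value for 6 values. The A/- MEP array did not detect Gfi1, so its fold there is only a bound. With that array at its detection floor the difference was -2.69 and the gap 0.492 of the range, below the critical value. The 8 probes of the 5 genes were examined in this way and 1 was picked out. Chance picks out about 1 in 20 such sets. The +/+ MEP array carried a neutrophil marker sum of 123418 and the A/- MEP array one of 2107, and the part of this in the Gfi1 value was not tested.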

How the results depend on the processing

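The fits were paired by population. No paired analysis was possible by replicate number because the labels carry none. With 1 array per genotype and population, the spread between mice was not measured, and signals near background (Cebpa outside MPP, CMP and GMP, and the 5 genes on A/- MEP) limit what a fold can show. The number of genes called over the 6 pairs stayed at 0 of 5 with each pair left out. It became 1 with both the LTHSC pair and the MEP pair removed, where Gfi1 passed at -0.81 and the LSK count became 1 (Cebpe). Leaving out each pair moved the means over pairs between -0.0544 and 0.25 for Cebpa, -1.82 and -0.81 for Cebpe, -1.43 and -0.71 for Gfi1, -0.29 and -0.08 for Spi1, and -0.66 and -0.36 for Irf8. Cebpa turned to -0.0544 over the 6 pairs without MPP and to -0.0491 without GMP. In LSK cells Cebpa lay between -0.0584 (without MPP) and 0.49, and Irf8 between -0.53 and 0.0354 (without STHSC).

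In committed progenitors Cebpa turned to 0.0493 with an offset of 50, 0.18 with 75th percentile scaling, 0.0911 with cyclic loess, 0.0648 with the authors' processed values, 0.0641 without background correction and 0.35 without MEP (also with LTHSC left out), and Spi1 to 0.13 in those last 2 settings. With a pair left out Cebpa lay there between -0.39 and 0.35 and Spi1 between -0.38 and 0.13. The committed minus LSK difference of Gfi1 turned to 0.19 without LTHSC and MEP. The number of genes whose level differed between committed and LSK cells was 1, and 1 to 5 with a pair left out (5 without MEP), 2 with 75th percentile scaling, 4 with the authors' values, 2 without background correction and 3 with the LTHSC arrays normalized apart. The count over all features moved too, from 5877 of 12807 (45.9%) in the main fit to 7689 with 75th percentile scaling. Without MEP 10.5% of features were called higher. The share of features is not given for the other settings, so those gene counts are not a result about these genes. Without the CMP pair Cebpa's difference was 0.61 and no longer passed. Of 50 level contrasts left when a population is dropped, 23 to 28 passed.

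Features called over the 6 pairs numbered 76, and 2 to 473 with a pair left out (473 without LTHSC, 2 without STHSC), 11 without the trend, 498 without LTHSC and MEP, 4 without the block and 122 with each probe a feature. In LSK cells they numbered 0, and 0 to 81 with a pair left out, 5 without a filter, 264 without LTHSC and MEP and 1 by probe. In committed progenitors they numbered 61, and 1 to 209 with a pair left out, 270 with 75th percentile scaling, 97 with the authors' values, 95 without background correction, 98 without a filter, 1 without the trend, 317 without LTHSC and MEP and 113 by probe. For the committed minus LSK difference they numbered 1, and 0 to 5, 2 without a filter, 0 without the trend and 7 without LTHSC and MEP. The causes were not tested. Of the other tested values for single genes, 291 kept their direction and their side of the threshold. Of the differences in single pairs, 199 stayed within the fitted spread of a pair difference and 11 moved further. Irf8 in MEP, detected on neither array, was 1 of these, at -1.29 in the main setting and -0.57 with 75th percentile scaling. Leaving out each pair for the secondary granule and neutrophil lists was chosen after seeing the data.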
